A study of Mus musculus with 2 samples.

Results

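Replication-dependent histone genes are the clustered genes that supply most histone protein when DNA is copied. They were taken here as every gene with a protein-coding transcript and a symbol that begins with Hist1h, Hist2h, Hist3h or Hist4h, with no use of measured values. The rule gave 67 genes with 72 protein-coding transcripts, of 22028 protein-coding genes and 55536 annotated genes in the gene table. Of the 67, 6 encode H1, 18 H2A, 18 H2B, 12 H3 and 13 H4. The genes lie in 4 groups on the mouse genome (mm10): 54 on chromosome 13 (symbols Hist1h), 10 on chromosome 3 (Hist2h), 2 on chromosome 11 (Hist3h) and 1 on chromosome 6 (Hist4h4). Hist1h2aj, Hist1h2al and Hist3h2bb-ps carry the same kind of symbol but are pseudogenes and were left out.

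The study measured RNA left after removal of ribosomal RNA from a nuclear fraction of mouse macrophages. The cells were primary macrophages of strain C57BL/6J, described as BMDM, the usual short form for macrophages grown from bone marrow, and all had received lipid A, the membrane anchor of lipopolysaccharide and a ligand of TLR4, at 100 ng/ml for 25 min. The description names the fraction nucleoplasmic, and a separate label gives nucleus. Both libraries form 1 group with no untreated cells beside it; replicate 1 was made from 500 ng of RNA and replicate 2 from 1 µg, with a labelled fragment size of 250 to 400, and the age and sex of the animals were not collected. The libraries have separate biological replicate numbers but name the same donor, so every SD below is the spread between these 2 libraries, and no p-value can be given. The gene table held 13506939 estimated counts in replicate 1 and 17932332 in replicate 2. The 12 macrophage markers checked were all at 1 TPM (the deposited measure of level per transcript length, scaled to a fixed sum per library) or more in both libraries and summed to 4598 and 3861 TPM. Of the markers of other cells, 0 of 6 lymphocyte, 0 of 5 neutrophil precursor and 0 of 4 fibroblast genes reached 1 TPM in both libraries of the gene table. Of the 5 erythroid and megakaryocyte genes, Pf4 did, at 70.3 and 48.3 TPM, while Hbb-bs was at 0 in the gene table. A second table, made without alignment, gave the lymphocyte gene Cd3d 520 and 227 counts, against 2 and 1 in the gene table. It gave the neutrophil precursor gene Ly6g 1 and 0 counts. Both were named after their values were seen, as the highest and lowest of the lymphocyte, neutrophil precursor and fibroblast genes there.

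The nucleosome core is built from pairs of H2A, H2B, H3 and H4, and the linker histone H1 binds the DNA that enters and leaves it. Replication-dependent histone mRNAs are made mainly in S phase and, unlike other mRNAs, end without a poly(A) tail at a short hairpin just after the stop codon. The stem-loop binding protein Slbp and the U7 small nuclear RNP direct the cut after that hairpin, and the same hairpin controls the decay of the mRNA when DNA synthesis stops. Removal of ribosomal RNA, in contrast to poly(A) selection, keeps such mRNAs in the library. Macrophages grown from bone marrow can divide under growth factor, and a bulk library cannot separate fewer cells in S phase from less histone RNA per cell. RNA outside the nuclear fraction was not measured, so the values do not show the histone RNA of whole cells.

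The hairpin is the sequence that sets these genes apart, so it is shown for 1 gene of each form found. It was searched as a stem of 6 paired bases, of which at most 1 pair could be G with T, around a loop of 4, 16 bases in all. The stem had to open with GG and close with CC and the loop to begin with TT. The search ran within 100 bases after the stop codon. Sequences are from the GENCODE M21 transcripts (mm10), 5′ to 3′ on the gene's strand, with the hairpin in capitals.
Hist3h2a: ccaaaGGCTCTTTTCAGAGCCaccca
Hist1h4m: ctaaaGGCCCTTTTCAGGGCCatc
Hist1h3e: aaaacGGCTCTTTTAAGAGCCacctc
Hist1h4i: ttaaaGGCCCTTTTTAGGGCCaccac
Hist1h4b: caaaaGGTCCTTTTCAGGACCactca
Hist2h2ac: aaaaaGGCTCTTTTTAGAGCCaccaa
The form of Hist3h2a was found in 26 genes of H1, H2A, H2B and H3. The form of Hist1h4m was found in 7 genes, all H4, that of Hist1h3e in 6, those of Hist1h4i and Hist1h4b in 2 H4 genes each, and that of Hist2h2ac in that gene alone. The 11 H4 genes with a hairpin all had the form of Hist1h4m, Hist1h4i or Hist1h4b, and 0 had the form of Hist3h2a.

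With every protein-coding transcript of a gene searched, the hairpin was found in 44 of the 50 histone genes that had a transcript reaching at least 50 bases past the stop codon, or 88%. Among other protein-coding genes, searched in the same way, it was found in 10 of 20624, or 0.0485%. H2afx was among those 10; it encodes the variant H2A.X, whose gene is known to make both a hairpin form and a poly(A) form, and it is named here because of this match. The hairpin began 21 to 58 bases after the stop codon, with a median of 31. Of the 67 gene models, 64 were a single exon.

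Replication-dependent histone RNA made up a small part of this fraction. The 67 genes held 1635 estimated counts in replicate 1 and 2061 in replicate 2. This was 0.0121% of all counts in replicate 1 (95% Wilson interval 0.0115 to 0.0127) and 0.0115% in replicate 2 (0.0110 to 0.0120), or 0.0118% ± 0.00043 (SD, n = 2). The intervals cover counting error only and overlap, and a difference between the libraries was not tested. On the per-length scale of the gene table the sum was 164 TPM in replicate 1 and 150 in replicate 2. The alignment-free table, the second kind deposited, gave lower sums that were further apart, 97.6 and 29.9 TPM. All protein-coding genes were lower there as well, with 241636 and 67210 TPM against 353849 and 264868 in the gene table, so TPM of the 2 tables is not on one scale.

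Single genes were at low levels. The median of log2(TPM + 1) over the 67 genes was 1.33 in replicate 1 and 1.06 in replicate 2, or 1.20 ± 0.20 (SD, n = 2), against 0.67 ± 0.22 over all protein-coding genes. The highest value of any histone gene was 16.1 TPM in replicate 1 and 15.6 TPM in replicate 2. Of the 67, 28 (41.8%) had at least 1 TPM in both libraries. The same was true of 9806 of 22028 protein-coding genes, or 44.5%, so the share detected in the gene table was near the background. By TPM of the alignment-free table the counts were 10 of 67, or 14.9%, and 7550 of 22028 protein-coding genes, or 34.3%, so there the share detected was below the background. Because TPM of the 2 tables is not on one scale, 1 TPM is not the same cut in both. In the gene table a minimum of 5 TPM left 7 of the 67. The shares therefore cannot show whether the position of the histone genes against other genes differed between the tables. At 0 in both libraries of the gene tables were 5 histone genes, or 7.46%, against 16.2% of protein-coding genes.

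**Figure D1:**
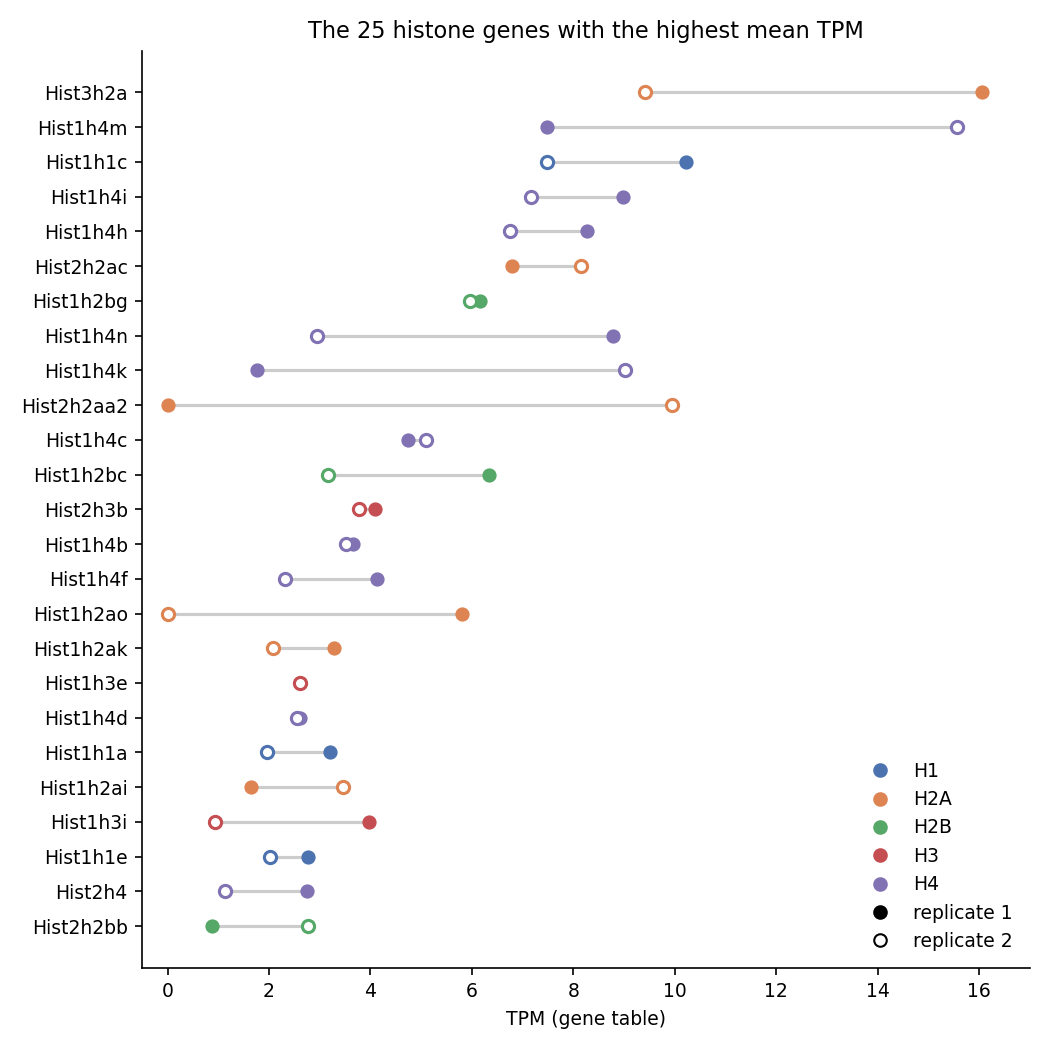
TPM in the gene table of the 25 histone genes with the highest mean, with replicate 1 as filled and replicate 2 as open circles, coloured by histone type. Hist3h2a (16.1 and 9.41 TPM) had the highest mean, and Hist2h2aa2 and Hist1h2ao were at 0 in 1 library and above 5 TPM in the other.

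By type, H4 took the largest part of the histone TPM. Its 13 genes summed to 57.1 and 59.1 TPM in replicates 1 and 2, or 37.1% ± 3.3 (SD, n = 2) of the histone total. H2A genes summed to 41.9 and 43.9 TPM, or 27.4% ± 2.7, and H2B genes to 27.8 and 20.7 TPM, or 15.4% ± 2.2. H1 followed with 18.1 and 14.4 TPM, or 10.3% ± 0.97, and H3 with 19.1 and 11.7 TPM, or 9.73% ± 2.74. The order of H4, H2A and H2B was the same in both libraries, while H1 and H3 changed places and did not differ beyond their spread. TPM depends on model length, and the H4 gene Hist1h4k has a model of 312 bases, within the labelled fragment size. In replicate 2 Hist1h4k had 9.02 TPM from 27.3 estimated counts, and Hist3h2a, on 2146 bases, had 9.41 TPM from 424. Median model lengths were 539 bases for H4, 481 for H2A and 492 for H2B. Whether models near the fragment size raised the TPM of H4 was not tested. Counted as estimated counts with no regard to length, the order was another: H2A 32.9% ± 0.55, H4 21.9% ± 3.3, H1 21.9% ± 0.40, H2B 16.5% ± 3.2 and H3 6.83% ± 0.29. The place of H2A by counts rested on Hist3h2a. Without that gene H2A had 108 and 263 counts and held 12.5% ± 5.0 of the histone counts, below H1 (28.5% ± 1.9), H4 (28.5% ± 2.9) and H2B (21.6% ± 5.2).

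**Figure D2:**
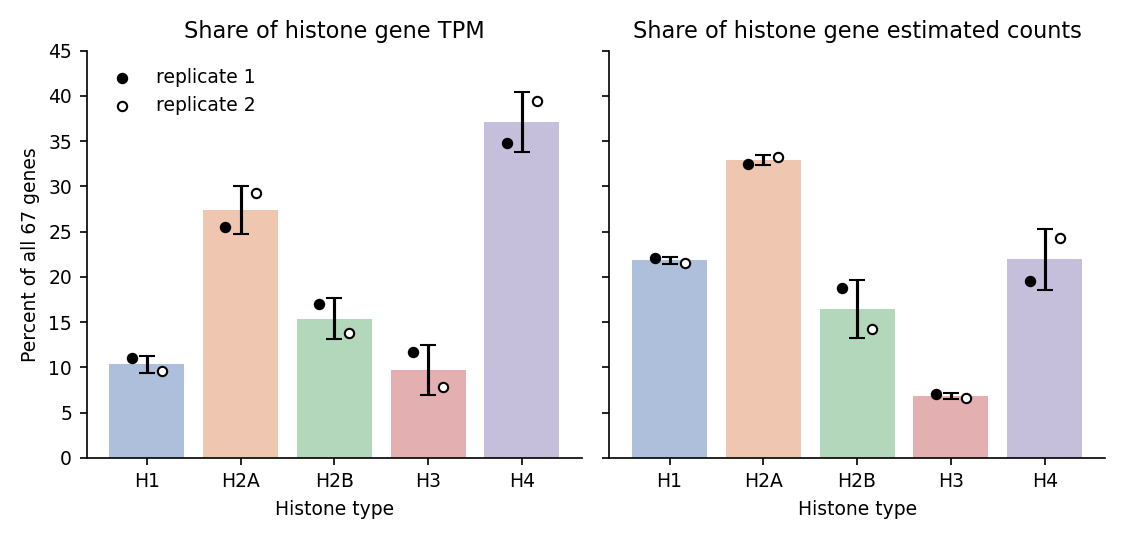
Percent of the summed TPM (left) and of the summed estimated counts (right) of the 67 histone genes held by each histone type, with bars as means, error bars as SD over 2 libraries and circles as single libraries. H4 was highest per length and H2A highest by counts, the latter only with Hist3h2a included.

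H4, which forms a tetramer with H3 at the centre of the nucleosome, had nearly all of its genes above the minimum. At 1 TPM or more in both libraries were 12 of its 13 genes, against 44.5% of all protein-coding genes. The median of log2(TPM + 1) over the 13 was 2.10 ± 0.17 (SD, n = 2). With no regard to length, 10 of the 13 had at least 10 estimated counts in both libraries. The 13 coding sequences encode 1 protein of 103 amino acids through 12 different coding sequences. Hist1h4i (ENSMUSG00000060639.5, chr13:22040636-22041362, minus strand) had 62.8 and 89.4 estimated counts and 8.97 and 7.17 TPM. Hist1h4h had 8.26 and 6.75 TPM, Hist1h4c 4.74 and 5.10 TPM and Hist1h4b 3.66 and 3.52 TPM. These 4 genes had similar levels in both libraries.

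Hist1h4m (ENSMUSG00000069306.5, chr13:21811746-21812147, plus strand), Hist1h4n and Hist1h4k varied more. Hist1h4m had 7.49 and 15.6 TPM, Hist1h4n 8.79 and 2.95 TPM and Hist1h4k 1.77 and 9.02 TPM. Hist1h4k rested on 2.48 estimated counts in replicate 1 and 27.3 in replicate 2. Of the remaining genes among the 25 highest, Hist1h4f had 4.13 and 2.32 TPM, Hist1h4d 2.61 and 2.56 TPM and Hist2h4, the H4 gene on chromosome 3, 2.74 and 1.14 TPM. The exception at the low end was Hist4h4, the single gene on chromosome 6, at 0.390 and 0.330 TPM from 14 and 20 estimated counts on a model of 2863 bases.

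How 2 H4 genes can encode the same protein with different RNA is shown by the first 60 coding bases of Hist1h4m and Hist1h4k, which differ at 11 positions in this stretch and at 15 of 312 in all. Capitals mark the bases that differ, and the sequences are from the same GENCODE transcripts.
Hist1h4m: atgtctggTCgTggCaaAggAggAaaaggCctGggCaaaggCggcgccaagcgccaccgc
Hist1h4k: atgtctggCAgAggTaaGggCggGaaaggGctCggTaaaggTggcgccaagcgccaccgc
Across all pairs of H4 genes the identity of the coding sequences ran from 85.3% to 100%, with a median of 93.9%. In the H2A genes that share the commonest coding length the median was 96.4%, and in H2B it was 97.1%.

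H2A pairs with H2B on the outside of the nucleosome. Hist3h2a on chromosome 11 (ENSMUSG00000078851.4, chr11:58954685-58956830, plus strand) was the highest of all 67 genes by mean TPM and by counts. In replicate 2 Hist1h4m and Hist2h2aa2 were above it in TPM. It had 424 estimated counts in each library and 16.1 and 9.41 TPM, or 12.7 ± 4.7 TPM (SD, n = 2). Its model overlaps Trim17 on the same strand over 708 bases, and 31.5% of its 50-base windows occur in Trim17. Trim17 itself had 190 and 133 estimated counts. The posterior SD of the Hist3h2a count, the authors' measure of how uncertain the read assignment was, was 0.675% of the count in replicate 1 and 1.79% in replicate 2. Without Hist3h2a the histone share of all counts was 0.00905% ± 0.00012 (SD, n = 2), against 0.0118% with it.

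Hist2h2ac (ENSMUSG00000068855.3, chr3:96220361-96220880, minus strand) followed with 28.3 and 63.0 estimated counts and 6.79 and 8.16 TPM. Hist1h2ak had 3.29 and 2.07 TPM and Hist1h2ai 1.65 and 3.46 TPM. Of 18 H2A genes, 5 had at least 1 TPM in both libraries, among them the 4 just named, against 44.5% of all protein-coding genes. The fifth, Hist1h2ae, is among the largest ratios between libraries and had 1.70 and 1.92 TPM. The 5 leave out copies that were each at 0 in 1 library. Of these, Hist1h2ao and Hist1h2ap summed to 5.80 and 3.14 TPM, and Hist2h2aa1 and Hist2h2aa2 to 2.92 and 9.95 TPM. Hist1h2aa, the testis H2A gene, had 1 estimated count in replicate 1 and 0 in replicate 2, below the limit of 3 counts that a 0 allows.

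By mean TPM the H2B genes were led by Hist1h2bg, with 33.9 and 59.5 estimated counts and 6.16 and 5.97 TPM. Hist1h2bc, which had more counts (81.6 and 70.6), had 6.34 and 3.16 TPM, and Hist2h2bb 0.880 and 2.76 TPM. As in H2A, 5 of 18 genes had at least 1 TPM in both libraries, against 44.5% of all protein-coding genes. Hist1h2ba, the testis H2B gene, was at 0 in the gene table, and Hist1h2bm was at 0 in both libraries and both kinds of table. At these depths a count of 0 allows up to 0.222 CPM (counts scaled to a fixed library total) in replicate 1 and 0.167 in replicate 2. This limit covers counting error only and not how reads were divided between genes that share sequence. Most of the TPM of Hist1h2be (58.7% and 72.8% in replicates 1 and 2) was assigned to a transcript annotated as non-coding, and this gene was named after its values were seen.

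H3 had the lowest share by counts. Hist2h3b led with 4.09 and 3.77 TPM, Hist1h3e had 2.61 TPM in both libraries, and Hist1h3i had 3.98 and 0.930 TPM. Of the 12 H3 genes, 3 had at least 1 TPM in both libraries, against 44.5% of all protein-coding genes. All 12 coding sequences have the same length of 411 bases, and they encode 2 different proteins. Hist2h3c1 was at 0 in both libraries and both tables.

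H1 binds linker DNA and differs most between its genes, with 6 coding sequences that encode 6 proteins. Hist1h1c (ENSMUSG00000036181.2, chr13:23738808-23740367, plus strand), which encodes H1.2, had 188 and 236 estimated counts and 10.2 and 7.48 TPM, or 54.2% of the H1 TPM on average. Hist1h1a had 3.20 and 1.95 TPM and Hist1h1e 2.77 and 2.02 TPM. Hist1h1d had many counts but a low level per length: 78 and 69.3 estimated counts on a model of 7425 bases gave 0.790 and 0.420 TPM, and it was named for that after its values were seen. Hist1h1t, the testis H1 gene, had 1 and 0 estimated counts, and it too was named after its values were seen, as were Hist1h2aa and Hist1h2ba above.

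Many of these genes share long stretches with their copies, and the estimated count of a single copy then rests on how reads were divided. A window of 50 bases taken along a gene's transcript also occurred in another gene for 49.7% of windows in the median histone gene. The H1 genes shared least, with a median of 1.13%, and the H2A genes most, with 73.0%. In the 33 genes that shared 50% or more, the posterior SD was 24.4% of the count in replicate 1 and 20.0% in replicate 2 (medians over genes with at least 1 count). In the 25 genes that shared 10% to 50% it was 4.17% and 5.82%, and in the 9 that shared less it was 0%. All 6 genes that were at 0 in 1 library and at 1 TPM or more in the other were in the group that shared most.

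Hist1h2ao and Hist1h2ap are such a pair. Their coding sequences are identical over 393 bases, as the first 60 show.
Hist1h2ao: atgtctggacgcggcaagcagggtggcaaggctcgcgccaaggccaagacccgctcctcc
Hist1h2ap: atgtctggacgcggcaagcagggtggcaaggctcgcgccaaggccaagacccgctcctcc
Hist1h2ao had 21.03 estimated counts in replicate 1 and 0 in replicate 2, and Hist1h2ap had 0 and 21.5. Their sum was 21.03 and 21.49 counts, from libraries of different depth, while each copy was listed at 0 in one of them. On the TPM scale the sum was 5.80 in replicate 1 and 3.14 in replicate 2, or 4.47 ± 1.88 TPM (SD, n = 2). The posterior mean count, the average over draws of the read assignment, gave both genes a part: 11.8 and 3.80 for Hist1h2ao and 8.14 and 16.1 for Hist1h2ap. Hist2h2aa1, described next, is named as a copy after its values were seen.

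Hist2h2aa1 and Hist2h2aa2 on chromosome 3, are also identical over their 393 coding bases. Hist2h2aa1 had 14.8 and 0 estimated counts and Hist2h2aa2 0 and 78.7. Here the sum was 14.8 in replicate 1 and 78.7 in replicate 2, and the sum of posterior means 19.9 and 79.0. The counts assigned to the pair were thus higher in replicate 2. On the TPM scale the sum was 2.92 and 9.95. Hist2h2aa1 overlaps Gm20634 on its own strand and Gm20633 on the opposite strand, and Hist2h2aa2 overlaps Gm20632 on the opposite strand. These are named because of the overlap, with 275 and 223 counts for Gm20634, 117.5 and 101.4 for Gm20633 and 74.2 and 90.9 for Gm20632. Of the Hist2h2aa1 windows, 89.4% occur in Gm20634, whose count was lower in replicate 2. The sum of the pair therefore also depends on how reads were divided with Gm20634, whose part in the rise was not tested. Hist1h4m and Hist1h4n, with identical coding sequences of 312 bases, summed to 45.1 and 95.1 counts and to 16.3 and 18.5 TPM. On the TPM scale the sum, 17.4 ± 1.6 TPM (SD, n = 2), varied less between libraries than either copy did. Hist2h3c1 lies wholly within Gm20634, and all of its windows occur there. Its estimated count of 0 stood beside posterior means of 18.8 ± 10.7 and 9.70 ± 6.39 counts (posterior SD), so its listed 0 does not show absence.

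**Figure D3:**
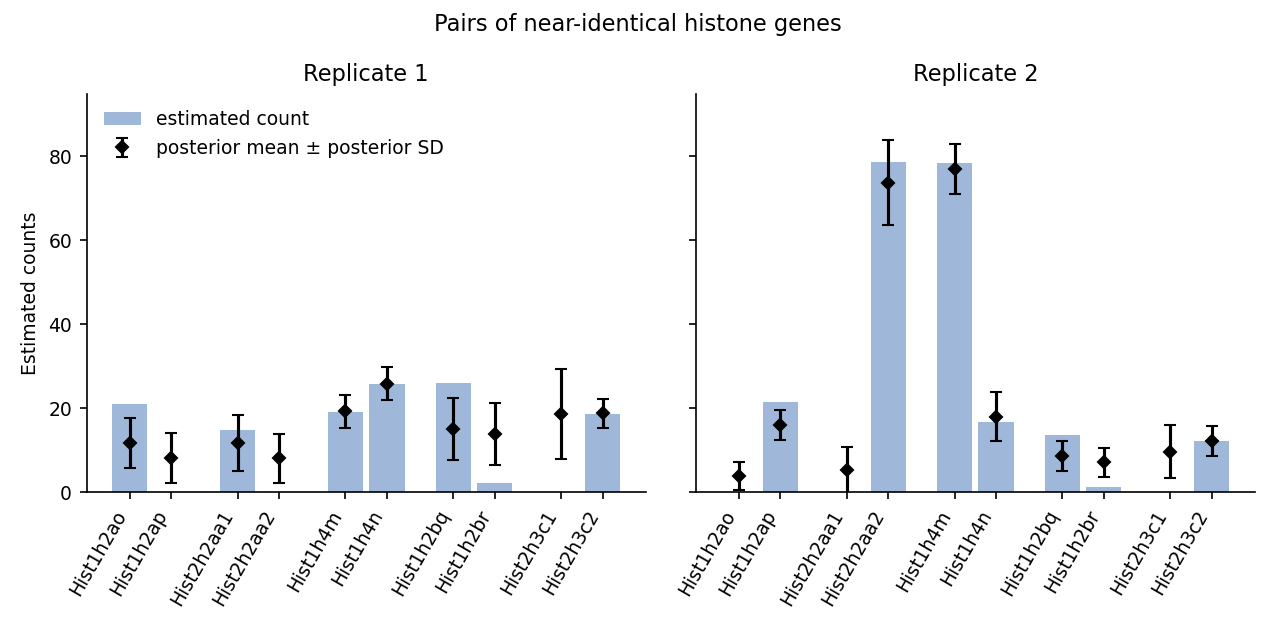
Estimated counts (bars) and posterior mean counts with posterior SD (diamonds) of 10 histone genes with close copies, for each library. Bars of 0 stand beside posterior means above 0 in Hist1h2ap, Hist2h2aa2 and Hist2h3c1 of replicate 1 and in Hist1h2ao, Hist2h2aa1 and Hist2h3c1 of replicate 2.

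The second kind of table, made from reads without alignment, allowed each gene to be compared with its value in the gene table on the CPM scale. There 64 of the 67 genes had a count above 0 in at least 1 library. The histone genes as a whole had 121 and 115 CPM in the gene table and 120 and 103 CPM in the alignment-free table. Of 38 histone genes with at least 10 counts in either table in both libraries, 3 were over 2-fold higher in the alignment-free table in both libraries. Among all protein-coding genes 3392 of 14747 were, or 23.0%. Over 2-fold lower were 0 of the 38 histone genes and 0.129% of protein-coding genes. The share of histone genes that differed was below the background, a contrast that was not tested.

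The 3 genes that differed were Hist1h2bh, Hist4h4 and Hist2h2ab. Hist1h2bh had 3.12 and 1.04 counts in the gene table against 53.7 and 22.8 in the alignment-free table. Hist4h4 had 14 and 20 against 119 and 90.8, and Hist2h2ab had 1 and 11 against 26 and 39. The models of Hist1h2bh and Hist4h4 run 1214 and 2445 bases past the hairpin, while that of Hist2h2ab ends at the stop codon. Hist2h2aa2 and Hist1h2ap also had large differences, from replicate 1 alone: each was at 0 in the gene table and at 49.5 and 29.4 counts in the alignment-free table.

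**Figure D4:**
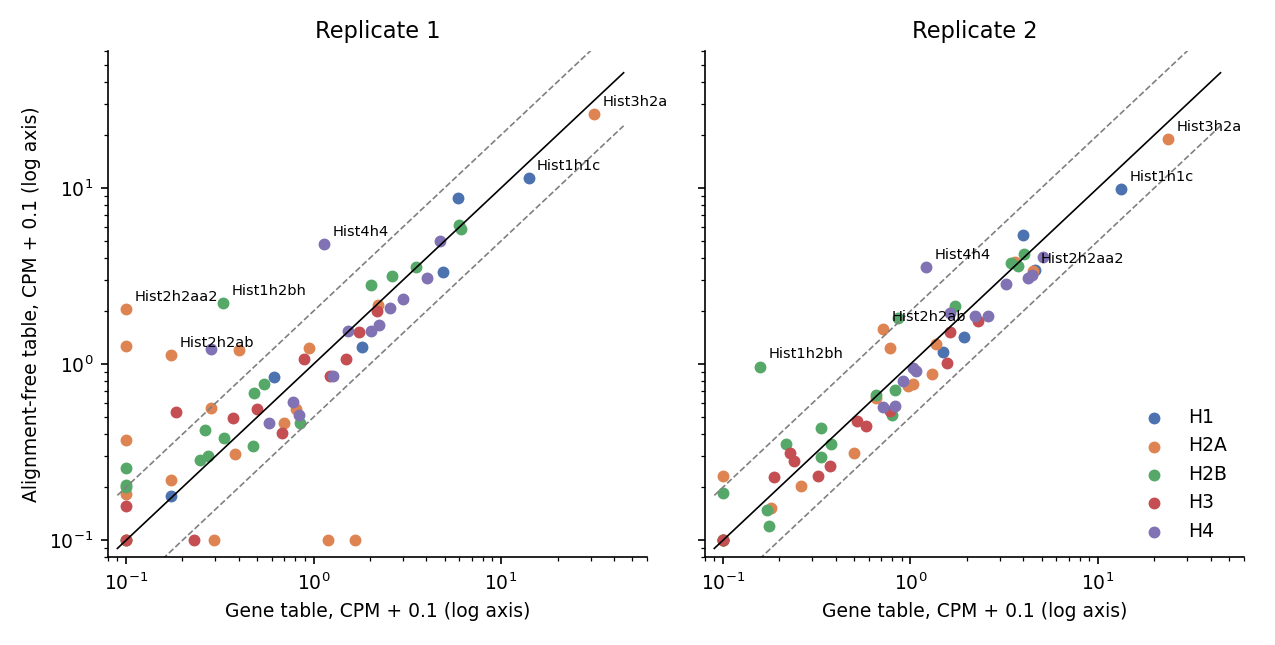
CPM of each of the 67 histone genes in the gene table (horizontal) and in the alignment-free table (vertical), with 0.1 added, on log axes, 1 panel per library. The solid line marks equal values and the dashed lines 2-fold differences; Hist1h2bh and Hist4h4 lie above the upper dashed line in both libraries.

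The libraries were compared gene by gene by the log2 ratio of TPM + 1, replicate 2 over replicate 1, in genes that reached 10 estimated counts in each library. The median over all 14584 such genes was -0.42, and differences are given relative to it. The median over the 26 histone genes was 0.05 above that of all genes, and stood at -0.029 with a pseudocount of 0.1 TPM. Of the 26, 1 was over 2-fold higher in replicate 2, Hist1h4m at 1.39, against 1.22% of all genes, and 0 were over 2-fold lower, against 0.487% of all genes. Hist2h2ac (0.66) and Hist1h2ae (0.54) came next, and at the other end were Hist1h4n (-0.89), Hist1h2bc (-0.40) and Hist2h4 (-0.38). The highest and the lowest of these, Hist1h4m and Hist1h4n, have identical coding sequences, and 89.8% and 85.6% of their windows occur in other genes. Their summed TPM was 16.3 and 18.5, and their summed counts were 45.1 and 95.1. How far their ratios depend on the division of reads between them was not tested. With 1 library on each side these ratios carry no replicate error, and the libraries also differ in depth and RNA input, whose part in the ratios was not tested.

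The gene models fell into 4 classes by their 3′ end, and the classes held different shares on the count and TPM scales. In 16 genes the model ends at the stop codon, with no hairpin in it, in 22 it ends within 100 bases past the hairpin, in 22 it runs on further, and in 7 no hairpin was found in the tail. The 22 models with long tails had a median length of 1255 bases and held 67.6% ± 4.5 of the histone counts but 38.2% ± 5.7 of the histone TPM (SD, n = 2). The 22 with short tails, of 481 bases in the median, held 15.1% ± 4.7 of the counts and 37.1% ± 3.1 of the TPM. The 16 that end at the stop codon held 4.79% ± 2.52 of the counts and 14.2% ± 5.2 of the TPM, and the 7 with no hairpin found 12.5% ± 2.7 and 10.4% ± 2.6. By class, 13 of 22 genes with a long tail, 7 of 22 with a short tail, 3 of 16 that end at the stop codon and 5 of 7 with no hairpin found had at least 1 TPM in both libraries. The files give counts per transcript and not positions, so whether reads lay before or past the hairpin was not tested.

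H2A and H2B genes often stand head to head, with their starts close together. In 12 such pairs the starts lay 176 to 306 bases apart on opposite strands. In 2 pairs both genes had at least 1 TPM in both libraries: Hist1h2ae with Hist1h2bg, and Hist2h2ac with Hist2h2be. In the first pair the H2A gene had 11.4 and 22.9 estimated counts and the H2B gene 33.9 and 59.5. In the second they had 28.3 and 63.0 against 79 and 65, on models of 520 and 2620 bases. Hist2h2be is named as the partner, after its values were seen. Over the 12 pairs the H2A genes summed to 85.8 and 169 counts and the H2B genes to 244 and 236.

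The sequences before the start differed by type in a way that is shown with 2 of the highest genes. They are the 150 bases before the start from RefSeq (GRCm38.p6), 5′ to 3′ on the gene's strand. Capitals mark 3 motifs on either strand: the CCAAT box, the core of the TATA box written TATAA, and the letters GGTCCG. A match on the other strand reads as its reverse complement, such as ATTGG for the first. The windows are chr11:58954535-58954684 on the plus strand for Hist3h2a and chr13:22041363-22041512 on the minus strand for Hist1h4i.
Hist3h2a: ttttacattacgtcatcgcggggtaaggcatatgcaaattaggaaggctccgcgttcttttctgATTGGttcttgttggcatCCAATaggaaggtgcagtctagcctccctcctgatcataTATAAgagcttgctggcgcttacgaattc
Hist1h4i: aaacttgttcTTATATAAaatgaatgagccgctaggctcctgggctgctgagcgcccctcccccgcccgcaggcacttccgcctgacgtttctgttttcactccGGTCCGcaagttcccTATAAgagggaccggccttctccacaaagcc
In RefSeq 61 of the 67 genes were matched, with 62 promoters. Within 250 bases before the start, CCAAT was found in 51 of the 62, or 82.3%, against 33.9% of 32851 promoters in the table. TATAA was found in 40, or 64.5%, against 22.8%.

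H4 was the exception for CCAAT. It was found in 3 of 12 H4 promoters and in 48 of 50 promoters of the other types, including all 17 of H2A and all 17 of H2B. GGTCCG, 6 letters noticed in printed H4 promoters and then counted, was found in 9 of 12 H4 promoters, in 2 of 50 of the other types and in 6.72% of all promoters. Windows of head-to-head H2A and H2B genes overlap, and the H4 genes Hist1h4m and Hist1h4n have nearly the same sequence before the start. These are therefore not independent promoters, and a match is a description of letters and not a site.

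The medians of the lists of factors that make, process and remove histone mRNA lay above that of the histone genes in both libraries. The lists were chosen from background knowledge, with earlier results of these data known. Of 12 genes of histone gene transcription, 10 had at least 1 TPM in both libraries, with a median of log2(TPM + 1) of 2.57 ± 0.38 (SD, n = 2). Gon4l had 19.4 and 12.4 TPM and Cdk2, the kinase that acts on the histone gene coactivator Npat, 13.7 and 7.81 TPM. Yy1 had 10.4 and 7.55 TPM and Hinfp, a factor that binds H4 promoters, 9.88 and 6.42 TPM. The lowest were E2f2 at 1.08 and 0.650 TPM and Ccne1, a cyclin E, at 0.660 and 0.270 TPM.

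Of 18 genes of histone mRNA 3′ end formation, 15 had at least 1 TPM in both libraries, with a median of 2.42 ± 0.28. Srrt, which links the cap to 3′ end formation, led with 76.5 and 54.9 TPM, followed by the scaffold Sympk with 25.2 and 19.8 TPM and the nuclease Cpsf3 with 23.17 and 14.01 TPM. Slbp, which binds the hairpin, had 9.09 and 7.19 TPM, near Hist1h1c and Hist1h4i. In the gene table Zfp473, which acts with the U7 particle, was lowest with 0.430 and 0.490 TPM, after Snrpf with 0.880 and 0.350. The alignment-free table gave Zfp473 453 and 287 counts, against 42 and 35 in the gene table, so this place holds for the gene table only. Of 12 genes of histone mRNA decay 10 were found by symbol and 9 had at least 1 TPM in both, with Smg1 at 91.3 and 53.4 TPM, Xrn1 at 27.6 and 21.3, Upf1 at 14.1 and 12.6 and Exosc10 at 14.5 and 9.19. Lsm2 (1.57 TPM in both) and Lsm1 (1.94 and 0.930 TPM) were lowest.

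Of 17 genes of chaperones, which carry histones to DNA, 16 reached the minimum in both, with a median of 3.49 ± 0.33. Atrx (128 and 90.7 TPM) and Daxx (20.8 and 20.5 TPM), which deposit H3.3 outside replication, led with the FACT subunit Supt16 (19.95 and 13.99 TPM) and Nap1l1 (15.9 and 14.5 TPM). At the low end were Chaf1a, a subunit of the complex that places H3 and H4 behind the replication fork, at 1.46 and 1.41 TPM, and Asf1b at 0.43 and 0.25 TPM.

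Genes of DNA replication and division were detected as well. Of 26 S phase genes, 21 had at least 1 TPM in both libraries, with a median of 1.62 ± 0.23. Tk1 had 29.5 and 27.0 TPM, Pcna 28.2 and 26.4, Mcm6 9.17 and 3.88 and Rrm1 8.46 and 2.85. Ccne1 was among the lowest. Of 16 genes of G2 and M, 7 reached the minimum in both, with a median of 1.24 ± 0.38. Mki67 had 9.19 and 15.5 TPM, Top2a 4.99 and 3.95, Cenpe 4.92 and 0.970 and Cdk1 3.23 and 1.92, while Ccnb2 (0.50 and 0.61 TPM) and Cdc20 (0.050 and 0.220 TPM) were lowest. The median of the histone genes, 1.20 ± 0.20, lay within the spread of the G2 and M list.

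The histone variants, most of which are made through the whole cell cycle, exceeded the replication-dependent genes as a sum. Their 11 genes reached 811 and 662 TPM against 164 and 150 TPM for the 67, with H3f3b, a gene of H3.3, at 558 and 464 TPM, Cenpa at 134 and 78.3, H2afy at 65.33 and 67.02 and H3f3a at 17.6 and 26.3. H2afy2 (1.33 and 1.13 TPM) and H1fx (0.29 and 0 TPM) were lowest.

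**Figure D5:**
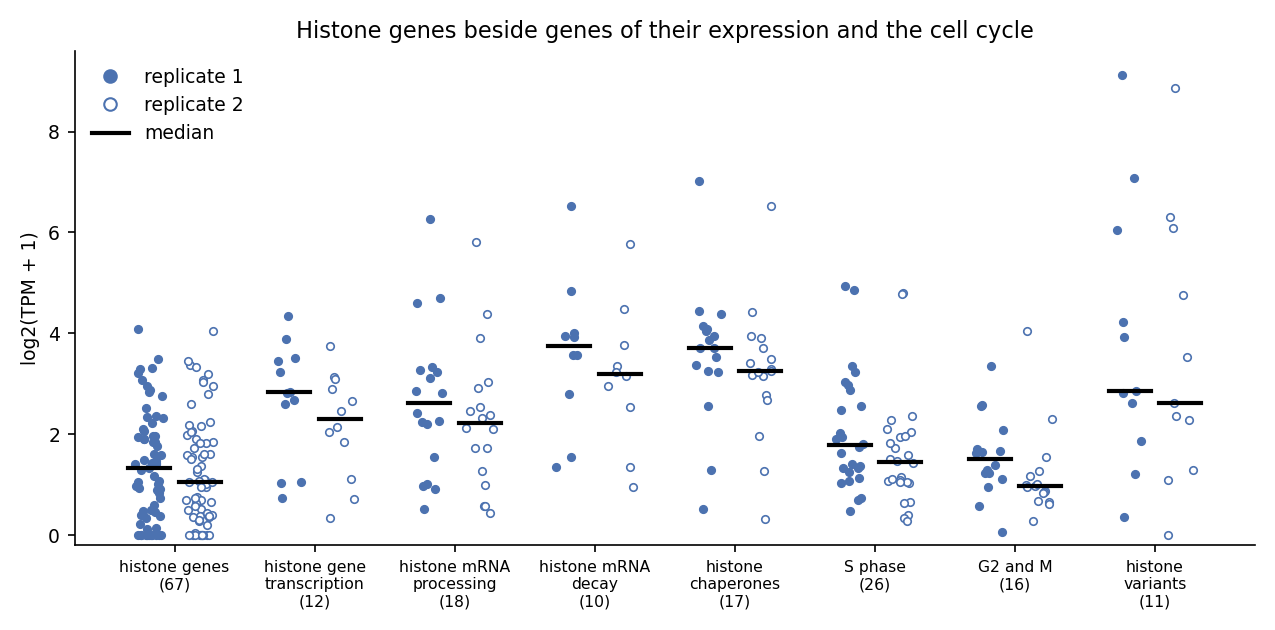
log2(TPM + 1) of the 67 histone genes and of the genes of 7 lists, with each point 1 gene in 1 library, replicate 1 filled and replicate 2 open, and the black line the median. The histone genes have medians of 1.33 and 1.06, below the lists of histone gene transcription, mRNA processing, mRNA decay and chaperones in both libraries.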

How the data were processed

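Total RNA-seq of 2 libraries was analysed. The authors deposited a gene table, a transcript table and an alignment-free transcript table per library. Per the deposited readme, expected (estimated) counts and TPM were made by the authors from a transcriptome alignment, and alignment-free estimated counts and TPM directly from reads, on mm10 with gene models of release M21. The transcript table also has a deposited percent for each transcript within its gene. Per the file headers, the gene tables also hold posterior mean counts, their TPM and posterior SDs. The quantifiers' names and use of strand were not given in the sources used here, so reads of a gene and an antisense partner cannot be told apart.

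Entries that name no annotated gene stayed out of totals. The alignment-free table was summed per gene. Replicate 1 had 13506939 estimated counts by gene table and 25317223 by alignment-free table, and replicate 2 had 17932332 and 26308342. By counting error alone, a count of 0 allows up to 3 counts. That limit does not cover how reads were divided between genes that share sequence. Ratios used TPM + 1, and the comparison of tables used CPM + 0.1. Shares have 95% Wilson intervals, which cover counting error only. For scaling with TMM (edgeR 4.0.16) and DESeq2 1.42.0 size factors, counts were rounded. The ratio between libraries and the comparison of tables were also run on simulated data, with no result reported here. How they perform at the low levels of the histone genes was not tested. Other tools were Python 3.11.15, pandas 2.3.3 and R 4.3.3.

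With 1 group, no test was made. The members and lists were chosen with earlier results of these data known. Named are the 25 genes with the highest mean TPM, genes at 0 in all tables, up to 3 largest ratios between libraries in each direction, up to 5 largest differences between tables, and the 4 highest and 2 lowest genes of each list. One gene that this rule names is not reported here. One gene model was used per gene, the protein-coding transcript with the highest mean TPM. Zcchc6 and Zcchc11 of the decay list were not found by symbol.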

Additional observations from a re-analysis of the deposited data

Results flagged for a closer look

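Hist3h2bb-ps, a pseudogene with a histone symbol that the rule leaves out, had 5 estimated counts in replicate 1 and 7 in replicate 2 of the alignment-free table, above the 3 counts that a 0 allows. In the gene table it had 2 and 3 counts.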

How the results depend on the processing

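Of 78 alternative values for 12 results, 43 were labelled the same, 34 moved and 1 changed sign. The same meant within the spread between libraries, within 1.5 times for counts, and equal at 2 decimals for the median ratio. Except for counts, a single library always lies within the SD of 2 libraries. Its label was therefore fixed in advance and does not show stability. The share of counts was 0.0112% in the alignment-free table, 0.0157% of protein-coding counts and 0.00905% without Hist3h2a; with either library alone it was 0.0115% to 0.0121%. Genes with at least 1 TPM in both libraries (28) fell to 7 at a minimum of 5 TPM and to 10 by alignment-free TPM; single libraries gave 36 to 39. The median level was 0.47 with a pseudocount of 0.1 TPM, 1.44 in genes with at least 1 count in both, 0.71 as log2(CPM + 1) and 0.60 by alignment-free TPM; single libraries gave 1.06 to 1.33. By counts the types held 21.9% (H1), 32.9% (H2A), 6.83% (H3) and 21.9% (H4), and without Hist3h2a 28.52% (H1), 12.49% (H2A), 21.58% (H2B) and 28.49% (H4); alignment-free TPM gave 8.59% for H1 and 17.8% for H2B, and H2A without Hist3h2a was 21.01%. Single libraries gave 9.64% to 11.0% (H1), 25.5% to 29.3% (H2A), 13.79% to 16.96% (H2B), 7.80% to 11.7% (H3) and 34.8% to 39.5% (H4) of TPM. The highest 3 genes held 21.1% of TPM (20.6% to 21.7% in single libraries), 38.8% of counts, 19.9% of alignment-free TPM and 19.6% by posterior means. The median ratio between libraries (0.05) was 0.064 with TMM, 0.077 with DESeq2 size factors, -0.029 with a pseudocount of 0.1 TPM, 0.13 and 0.11 at 5 and 20 counts, 0.47 by alignment-free TPM and 0.081 by posterior means, so its sign depended on the pseudocount. The 1 gene beyond 2-fold became 2 with a pseudocount of 0.1 TPM, at 5 counts and by alignment-free TPM, and 0 at 20 counts. Genes over 2-fold apart between tables (3) were 7 in replicate 1 alone and 4 in replicate 2 alone. Posterior means and the values without Hist3h2a were chosen after seeing the data. For all of these the cause was not tested. No paired analysis was possible because both libraries belong to 1 group.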
